A study of Oryctolagus cuniculus with 39 samples.

Results

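The stromal vascular fraction (SVF) of rabbit subscapular brown adipose tissue (sBAT) was compared between 3 weeks and day 1 of age. The comparison took 6 of the 39 samples of the series, 3 RNA-seq libraries at each age, from New Zealand White rabbits without any other treatment named in the labels. Of the 20589 genes in the deposited SVF table, the 11341 with an FPKM (fragments scaled by transcript length and library size) of at least 1 in at least 3 of the 6 libraries were tested. The series followed the involution of brown fat in rabbits at day 1 and at 3, 6 and 12 weeks, in whole interscapular tissue (iBAT) and in the SVF of both depots. The labels do not say whether libraries came from separate or pooled animals, so the p-values measure the spread between these libraries, which may be technical.

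Brown adipose tissue burns fat to make heat, through the mitochondrial uncoupling protein UCP1, and keeps newborn mammals warm. The SVF is what remains of digested fat tissue once the buoyant fat cells are removed. It holds fibroblast-like adipose progenitors, which carry PDGFRA and CD34, together with blood vessel cells, macrophages, lymphocytes and residual blood.

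All 6 libraries carried the markers of such a mixture. PDGFRA, CD34, the endothelial PECAM1 and the leukocyte PTPRC each had a scaled FPKM above 5 in every library. Genes of fat cells were also present: the summed level of the 18 adipocyte genes in the table was 2676 to 7149 at day 1 and 2102 to 4872 at 3 weeks. The nature of these fat cell transcripts, from differentiating progenitors or from fat cells left in the fraction, cannot be told apart in bulk RNA. In all of these values fewer cells of a type and less RNA per cell cannot be told apart either.

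The libraries of the ages differed as a whole. ADORA1, the adenosine A1 receptor gene, and LOC100009266 held 63.9% to 80.4% of all deposited FPKM at 3 weeks and 26.2% to 37.3% at day 1. Whether these values are transcripts of both genes or an effect of library or quantification was not tested. Both genes were left out, and the other genes were divided by median ratio factors. These were 0.310, 0.522 and 0.516 at 3 weeks and 0.967, 1.042 and 0.938 at day 1. Genes with an FPKM above 0 numbered 12416 to 13888 at 3 weeks and 15451 to 15883 at day 1. Replicates correlated across genes less well at 3 weeks (Pearson's r of 0.865 to 0.891) than at day 1 (0.947 to 0.970), where genes are not independent replicates. Depth relative to replicate 1, read from ratios of low FPKM values, was 1.39 and 1.09 for 3 weeks replicates 2 and 3 and 1.07 and 0.82 for those of day 1. The ratio of depths between the ages could not be settled, and absolute depth is unknown. On the FPKM as deposited the median log2 difference of all genes tested was -0.97, against -0.08 after scaling. Directions are therefore those of the scaled values, and the genes and lists whose sign turns on the deposited FPKM are named.

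At 3 weeks ALDH1A1, complement genes, CD74 and the lipid droplet genes CIDEC and CIDEA stood above their day 1 levels. Globins and other red cell genes, smooth muscle actin, CTGF, several matrix genes and part of the cell cycle list stood below them. Of the 11341 genes tested, 1087 (9.58%) differed at a Benjamini-Hochberg adjusted p under 0.05 in limma, 502 higher (4.43%) and 585 lower (5.16%) at 3 weeks. An unadjusted p under 0.05 in limma was reached by 3066 of the 11341. Counts in the gene lists below are to be read beside these values for all genes tested. The 3 values of each age did not overlap for 3886 genes (34.3%), of which 1679 (14.8%) were higher and 2207 (19.5%) lower. Without day 1 replicate 1, 2 or 3 the call count was 150, 243 or 213, and without 3 weeks replicate 1, 2 or 3 it was 994, 901 or 1253. Genes that reached an FPKM of 1 in all day 1 libraries and in none at 3 weeks drop out of the test when 1 day 1 library is left out. Such genes were 130 of the 1087 called, fewer than the calls lost when a day 1 library was left out. On the deposited FPKM 106 genes were called higher and 6973 lower. The filter favoured genes of day 1, since 616 tested genes reached an FPKM of 1 in all day 1 libraries and in none at 3 weeks, and 25 the other way round; 130 of the 616 were called.

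ALDH1A1, which makes retinoic acid from retinaldehyde, had the largest rise on the log2(scaled FPKM + 1) scale of the genes named by rule. Its scaled FPKM was 2.5, 3.95 and 2.62 at day 1 and 74.1, 83.7 and 76.6 at 3 weeks (log2 difference 4.31, SE 0.20, limma adjusted p = 0.000301). The lowest 3 weeks library stood far above the highest of day 1, and the level held at 99.6 ± 16.3 at 6 weeks and 91.8 ± 16.6 at 12 weeks (SD, n = 3). ADH1A, an alcohol dehydrogenase that can oxidise retinol, was at 7.74, 4.92 and 4.05 at day 1 and 66.1, 23.4 and 68.2 at 3 weeks (log2 difference 2.92, SE 0.43, limma adjusted p = 0.011), without overlap. Among the 15 tested retinoid genes 4 rose and 2 fell, against 4.43% and 5.16% of all genes tested, with a median of -0.28. Retinoid genes gave 1, 2 and 1 rises and 0, 0 and 0 falls without day 1 replicate 1, 2 or 3, and 0 and 0 falls without 3 weeks replicate 1 or 3. The other rises were RARRES1 (1.92) and RARRES2 (1.21), genes first described as retinoid responsive, and the receptor RARG (1.31). CRABP1, a cytosolic retinoic acid binding protein, was at 39.6, 40.7 and 47.4 at day 1 and 5.97, 24.3 and 9.85 at 3 weeks (log2 difference -1.81, SE 0.43, limma adjusted p = 0.0427). CYP26B1, which breaks retinoic acid down, also fell (-1.32). ADH1A lost the call without day 1 replicate 3 (limma adjusted p up to 0.0502), RARRES1 without day 1 replicate 1 or 3 (limma adjusted p up to 0.0959), and CRABP1 and CYP26B1 without day 1 replicate 1, 2 or 3 or 3 weeks replicate 1 or 3 (limma adjusted p up to 0.165). ALDH1A1 stayed past the threshold whichever library was left out.

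Further genes were among the 12 largest rises named by rule. HS3ST1, a heparan sulfate sulfotransferase, stood at 1.35, 2.59 and 2.16 at day 1 and 36.8, 46 and 30.03 at 3 weeks (log2 difference 3.67, SE 0.25, limma adjusted p = 0.000708). HHIP, which binds and restrains hedgehog ligands, was below 1 in every day 1 library and at 14.3, 13.7 and 17.3 at 3 weeks (log2 difference 3.48, SE 0.22, limma adjusted p = 0.000708). Both genes were low in all day 1 libraries and clearly measured in all 3 weeks libraries, and as a ratio of means the rise of HHIP (34.8 times) was above that of ALDH1A1 (25.8 times). ITGBL1, an integrin beta-like protein, was at 7.63, 5.7 and 4.2 at day 1 and 70.2, 65.7 and 87.7 at 3 weeks (log2 difference 3.48, SE 0.24, limma adjusted p = 0.000708). ITGA11, a collagen receptor subunit of fibroblasts, was at 4.65, 7.96 and 4.56 at day 1 and 39.8, 64.4 and 45.3 at 3 weeks (log2 difference 2.93, SE 0.27, limma adjusted p = 0.00218). KCNJ8, a potassium channel subunit of pericytes and smooth muscle, was at 5.13, 3.88 and 3.24 at day 1 and 37.1, 47.3 and 56.9 at 3 weeks (log2 difference 3.24, SE 0.24, limma adjusted p = 0.000872). The ages did not overlap for any of these 3 genes. PENK, the precursor of enkephalin peptides, was at 4.71, 10.6 and 4.34 at day 1 and 68.1, 74.7 and 67.1 at 3 weeks (log2 difference 3.33, SE 0.30, limma adjusted p = 0.00213), and the 3 weeks libraries lay within a narrow range. RPL39 was also among the largest rises at 4.37, 38.3 and 2.76 at day 1 and 275, 243 and 64.8 at 3 weeks (log2 difference 4.15, SE 0.92, limma adjusted p = 0.034), but ribosomal protein genes have many near-identical copies and reads may be split between them. RPL39 lost the call without day 1 replicate 1 or 3 or 3 weeks replicate 1 or 2 (limma adjusted p up to 0.131). HHIP did not pass the filter on low FPKM when any 1 of the 3 weeks libraries was left out, and HS3ST1, ITGBL1, ITGA11, KCNJ8 and PENK stayed past the threshold whichever library was left out.

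**Figure D1:**
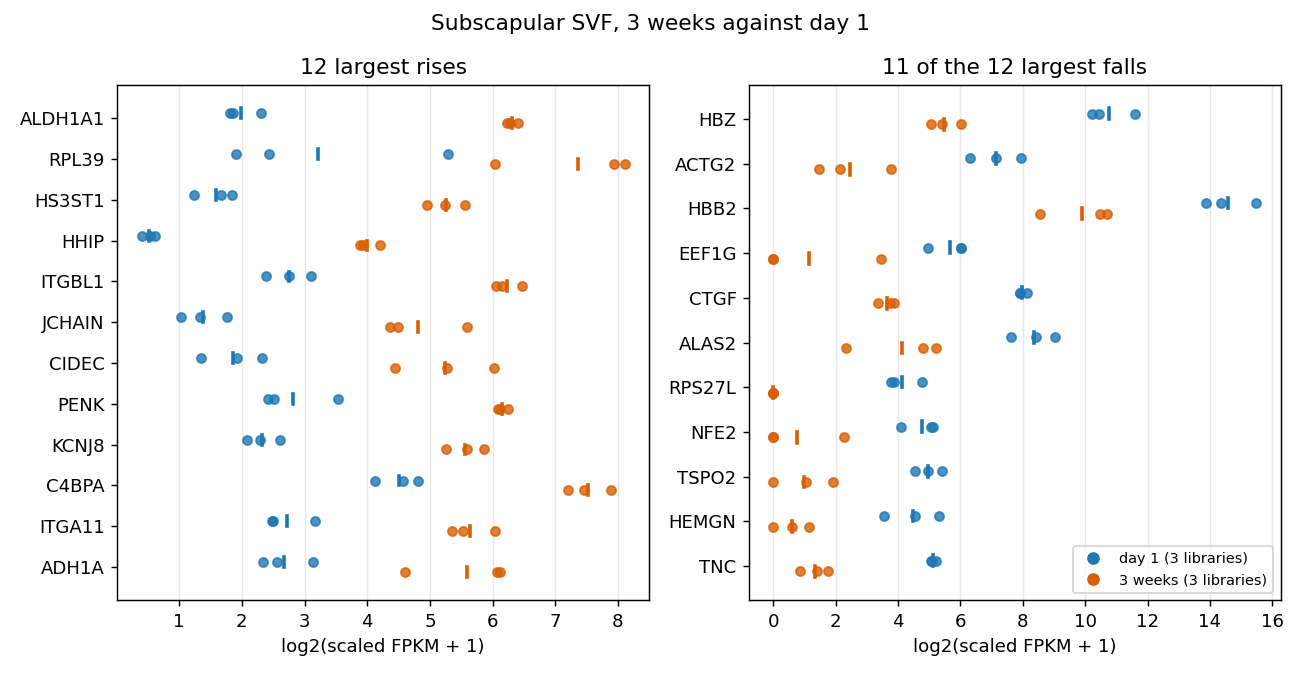
The 12 genes that rose most and 11 of the 12 that fell most are shown per library as log2(scaled FPKM + 1), day 1 in blue and 3 weeks in orange, with short vertical bars at the group means. In every gene shown the 3 values of the ages are apart, as the naming rule required, and RPS27L lies at 0 in all 3 weeks libraries.

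Among the progenitor genes PDGFRA, THY1, CD34 and DPP4 rose, and DLK1 and WNT2 fell. Of 21 tested, 4 rose and 2 fell, against 4.43% and 5.16% of all genes tested. At an unadjusted p under 0.05 in limma the counts were 4 and 6. The summed levels of the 22 progenitor genes in the table overlapped, at 2633 to 3714 at day 1 and 2617 to 3615 at 3 weeks. The median was 0.02, or -1.01 on the deposited FPKM. Progenitor genes gave 0, 2 and 2 rises and 0, 0 and 0 falls without day 1 replicate 1, 2 or 3, and 1 fall without 3 weeks replicate 3. PDGFRA, the platelet-derived growth factor receptor that marks adipose progenitors, was at 7.78, 10.2 and 5.77 at day 1 and 25.6, 48.9 and 31.6 at 3 weeks (log2 difference 2.01, SE 0.30, limma adjusted p = 0.011). THY1, a surface glycoprotein of fibroblasts, was at 114, 132 and 86.9 at day 1 and 358, 458 and 266 at 3 weeks (log2 difference 1.68, SE 0.25, limma adjusted p = 0.0114). CD34 was at 157, 149 and 162 at day 1 and 309, 429 and 313 at 3 weeks (log2 difference 1.14, SE 0.18, limma adjusted p = 0.0134; -0.02 on the deposited FPKM). In each of the 3 genes all 3 weeks libraries were higher than all day 1 libraries. DPP4, a marker of early progenitors, also rose (1.49). DLK1, a membrane protein that holds preadipocytes undifferentiated, fell from 238 ± 11.6 to 87.4 ± 34.4 (SD, n = 3; log2 difference -1.53, SE 0.31, limma adjusted p = 0.0272) and was lower still at 12 weeks, at 13.6 ± 12.6. WNT2, a WNT ligand, was at 27.5, 23.2 and 28.6 at day 1 and 4.58, 14.5 and 8.04 at 3 weeks (log2 difference -1.57, SE 0.36, limma adjusted p = 0.0365), with no overlap. PI16, which marks a fibroblast reservoir population, was at 631, 565 and 329 at day 1 and 265, 311 and 224 at 3 weeks; day 1 lay above 3 weeks in every library, but the difference did not pass the test (log2 difference -0.89, SE 0.27, limma adjusted p = 0.087). PDGFRA and THY1 lost the call without day 1 replicate 1 (limma adjusted p up to 0.055), CD34 and DLK1 without day 1 replicate 1, 2 or 3 (limma adjusted p up to 0.117), and WNT2 without day 1 replicate 1, 2 or 3 or 3 weeks replicate 3 (limma adjusted p up to 0.138).

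CIDEC, CIDEA and 3 other fat cell genes rose, while ADIPOQ fell. Of 15 tested adipocyte genes 5 rose and 1 fell, against 4.43% and 5.16% of all genes tested, and the median was 0.99, or -0.16 on the deposited FPKM. Adipocyte genes gave 2, 2 and 2 rises and 0, 0 and 0 falls without day 1 replicate 1, 2 or 3, and 0 and 0 falls without 3 weeks replicate 2 or 3. CIDEC, a lipid droplet protein that fuses droplets in fat cells, was at 3.97, 1.54 and 2.79 at day 1 and 63.8, 20.7 and 37.7 at 3 weeks (log2 difference 3.38, SE 0.43, limma adjusted p = 0.00736). CIDEA, its relative in brown fat droplets, was at 10.9, 10.1 and 8.41 at day 1 and 49.95, 54.4 and 64.1 at 3 weeks (log2 difference 2.4, SE 0.19, limma adjusted p = 0.00104). Both were several times higher in every 3 weeks library. GPD1 (1.93), which makes glycerol phosphate for triglyceride, DGAT2 (1.5), which completes triglyceride, and the adipogenic factor CEBPA (1.28) were the other rises. ADIPOQ, which encodes adiponectin, was at 225, 222 and 257 at day 1 and 165, 104 and 101 at 3 weeks (log2 difference -0.96, SE 0.22, limma adjusted p = 0.0396), lower at 3 weeks in every library. At 6 and 12 weeks it stood at 435 ± 192 and 622 ± 235, with means above both early ages. PPARG, the master factor of fat cell formation, was at 40.1, 23.2 and 49.2 at day 1 and 37.5, 17.9 and 36.1 at 3 weeks and gave no call (log2 difference -0.30, SE 0.37, limma adjusted p = 0.646), with a 95% interval of -1.15 to 0.56. Both ages had their lowest summed adipocyte level in replicate 2, and the summed levels overlapped. ADIPOQ lost the call without day 1 replicate 1, 2 or 3 or 3 weeks replicate 2 or 3 (limma adjusted p up to 0.144). CIDEC and CIDEA stayed past the threshold whichever library was left out.

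UCP1 was still present in the SVF at 3 weeks. Its scaled FPKM was 64.1, 58.5 and 87.2 at day 1 and 119.9, 61.8 and 90.3 at 3 weeks, with overlapping ages (log2 difference 0.34, SE 0.28, limma adjusted p = 0.465; 95% interval -0.30 to 0.98; -0.81 on the deposited FPKM). It was at 2.22 ± 2.39 at 6 weeks and 0.918 ± 0.764 at 12 weeks. In the interscapular SVF it was at 18.5, 5.1 and 43.8 at day 1 and 6.35, 0.484 and 11.3 at 3 weeks, and the difference between the depots in this change was not called (interaction 2.11, SE 1.09, limma adjusted p = 0.696). Of 12 tested thermogenic genes 2 rose and 1 fell, against 4.43% and 5.16% of all genes tested (median 0.50, or -0.64 on the deposited FPKM). Thermogenic genes gave 0, 1 and 0 rises and 0, 0 and 0 falls without day 1 replicate 1, 2 or 3, and 1 and 1 rises without 3 weeks replicate 1 or 3. LHX8, a transcription factor of brown fat, was at 3.67, 6.66 and 4.69 at day 1 and 16.2, 20.03 and 15.6 at 3 weeks (log2 difference 1.63, SE 0.24, limma adjusted p = 0.0113). LETMD1, a mitochondrial protein of brown fat, rose by 0.88 with a sign that turned to -0.16 on the deposited FPKM. PDK4, a brake on glucose oxidation, was at 102, 72.4 and 111 at day 1 and 33.8, 15.5 and 39.8 at 3 weeks (log2 difference -1.72, SE 0.35, limma adjusted p = 0.0271). DIO2, which activates thyroid hormone, was below the filter. LHX8 lost the call without day 1 replicate 1 or 3 (limma adjusted p up to 0.0553), LETMD1 without day 1 replicate 1, 2 or 3 or 3 weeks replicate 1 or 3 (limma adjusted p up to 0.157), and PDK4 without day 1 replicate 1, 2 or 3 (limma adjusted p up to 0.118).

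Oxidative phosphorylation and fatty acid synthesis genes gave 2 rises each, and fatty acid oxidation and cholesterol genes gave no call. Of all 11341 genes tested 4.43% were called higher and 5.16% lower, and 3066 had an unadjusted p under 0.05 in limma. Of 31 tested genes of oxidative phosphorylation 2 rose and none fell in limma, with 6 and 0 at an unadjusted p under 0.05 (median 0.28, or -0.86 on the deposited FPKM). The called rises were COX4I1 (0.76) and ATP5O (0.68), with -0.40 and -0.48 on the deposited FPKM. Oxidative phosphorylation genes gave 0, 1 and 0 rises without day 1 replicate 1, 2 or 3, and 0 and 0 rises without 3 weeks replicate 1 or 2. COX7B was at 0, 53.4 and 0 at day 1 and 94.7, 75.1 and 138 at 3 weeks and gave no call (log2 difference 4.73, SE 1.43, limma adjusted p = 0.0823), while LOC100353320, annotated as a cytochrome c oxidase subunit 7B, was at 93, 38.5 and 78.1 at day 1 and listed at 0 in all 3 weeks libraries. Near-identical copies such as these may share reads, and no direction is drawn from either. None of 19 tested genes of fatty acid oxidation was called in limma, with 5 higher and 1 lower at an unadjusted p under 0.05 (median 0.36, or -0.68 on the deposited FPKM); without 3 weeks replicate 2 or 3 the rises were 2 and 1. ACADL, an acyl-CoA dehydrogenase, was at 125, 115 and 114 at day 1 and 261, 105 and 225 at 3 weeks (log2 difference 0.63, SE 0.33, limma adjusted p = 0.257; -0.52 on the deposited FPKM). Replicate 2 was the lowest of the 3 weeks libraries for ACADL, and also for ACAA2 (58.4, 57.8 and 68.1 at day 1 and 117, 61.8 and 92.3 at 3 weeks; log2 difference 0.50, SE 0.25, limma adjusted p = 0.233; -0.64 on the deposited FPKM). Of 11 tested fatty acid synthesis genes 2 rose and none fell in limma, with 5 and 1 at an unadjusted p under 0.05 (median 0.53, or -0.54 on the deposited FPKM). The share that rose was above that of all genes, and the rises were 0, 1 and 2 without day 1 replicate 1, 2 or 3. SREBF1, the transcription factor of lipid synthesis, was at 6.31, 6.2 and 9.48 at day 1 and 29.6, 25.1 and 17 at 3 weeks (log2 difference 1.57, SE 0.27, limma adjusted p = 0.0164). MID1IP1, which activates acetyl-CoA carboxylase, was at 2.49, 3.13 and 2.27 at day 1 and 9.49, 8.99 and 9.14 at 3 weeks (log2 difference 1.5, SE 0.21, limma adjusted p = 0.00982). Among 18 tested cholesterol genes none was called in limma, with 2 higher and 1 lower at an unadjusted p under 0.05 (median -0.04). INSIG1 differed by 0.88 (limma adjusted p = 0.0862; -0.21 on the deposited FPKM) and ACAT2 by 0.27 (limma adjusted p = 0.416; -0.81 on the deposited FPKM). COX4I1 and ATP5O lost the call without day 1 replicate 1, 2 or 3 or 3 weeks replicate 1 or 2 (limma adjusted p up to 0.177), SREBF1 without day 1 replicate 1 or 2 (limma adjusted p up to 0.0814), and MID1IP1 without day 1 replicate 1 (limma adjusted p up to 0.0553).

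**Figure D2:**
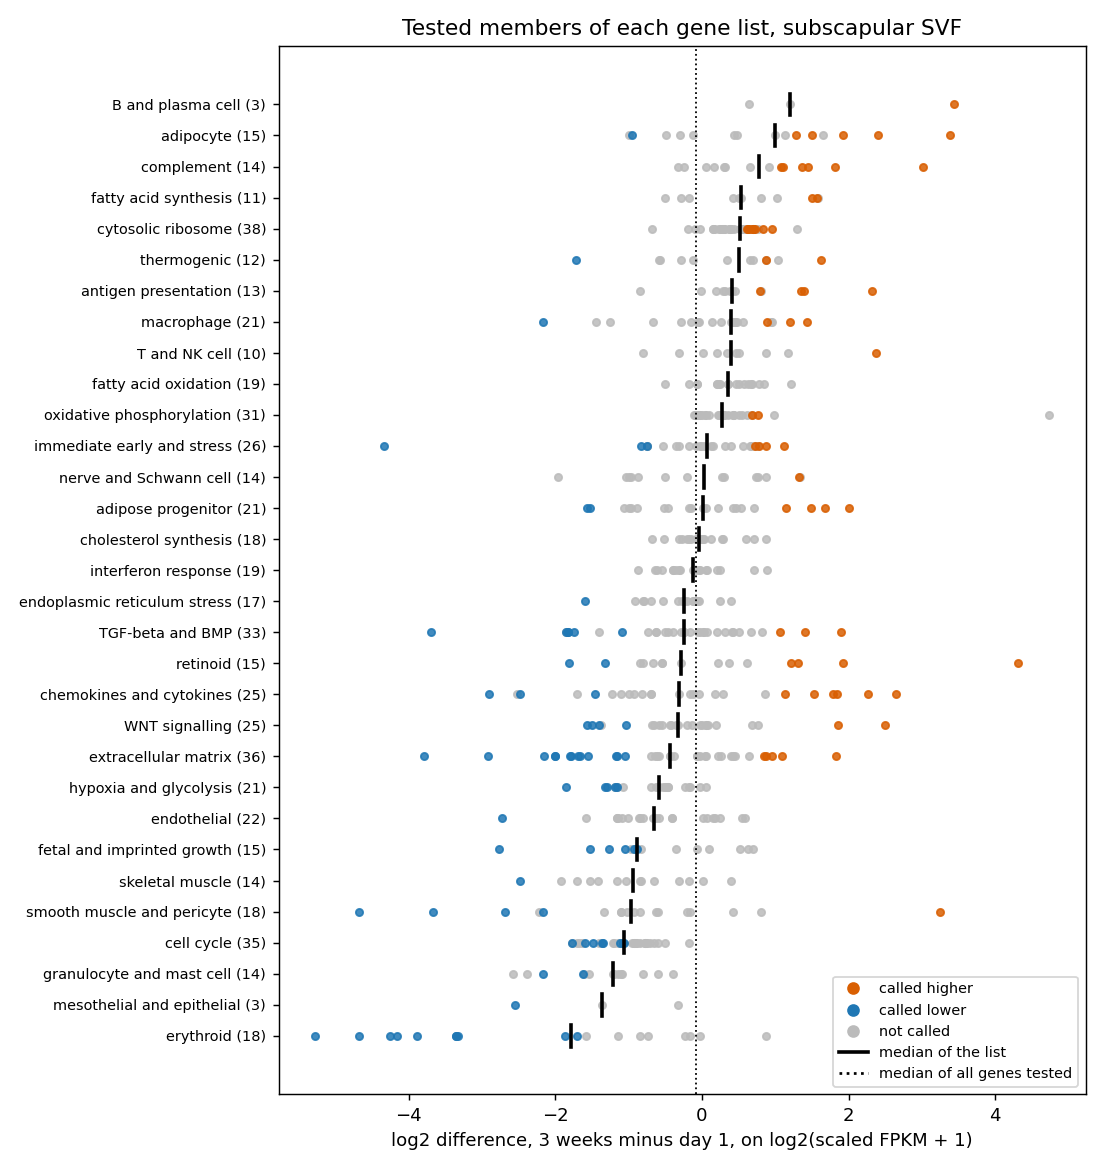
Each row is a gene list with its number of tested members, and each point is a member's log2 difference, 3 weeks minus day 1, orange or blue where limma called it higher or lower and grey otherwise. The black bars are list medians, from -1.79 for erythroid genes to 1.2 for the 3 tested B and plasma cell genes, and the dotted line is the median of all genes tested, -0.08.

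Matrix genes changed in both directions, and the main fibrillar collagens gave no call. Of 36 tested matrix genes 5 rose and 13 fell, against 4.43% and 5.16% of all genes tested, and the median was -0.43. The matrix list gave 0, 1 and 1 rises and 5, 5 and 7 falls without day 1 replicate 1, 2 or 3, and 1 rise without 3 weeks replicate 2. COL1A1, the chief chain of type I collagen, was at 4935, 4937 and 3363 at day 1 and 3555, 5496 and 3904 at 3 weeks (log2 difference -0.03, SE 0.26, limma adjusted p = 0.951; 95% interval -0.63 to 0.56). COL3A1, of type III collagen, was at 6405, 6921 and 3996 at day 1 and 5307, 7554 and 7003 at 3 weeks (log2 difference 0.22, SE 0.27, limma adjusted p = 0.644; 95% interval -0.42 to 0.86; -0.94 on the deposited FPKM). Neither was called, and the ages overlapped for both. TNC, tenascin C, a matrix protein of growing and healing tissue, was at 36.3, 32.5 and 32.9 at day 1 and 2.36, 1.63 and 0.813 at 3 weeks (log2 difference -3.79, SE 0.26, limma adjusted p = 0.000708). COL12A1, a collagen that decorates fibrils, was at 124, 145 and 113 at day 1 and 10.3, 21.3 and 18.1 at 3 weeks (log2 difference -2.92, SE 0.27, limma adjusted p = 0.00218). In both the 3 weeks libraries were all far lower, and neither returned to the day 1 level at 6 or 12 weeks (3.37 ± 1.25 and 16.8 ± 2.63 at 12 weeks). Also lower were the basement membrane collagens COL4A1 (-2.16) and COL4A2 (-2.01) and elastin (ELN, -2.01). The crosslinking enzymes LOX (-1.79), LOXL1 (-1.17) and LOXL2 (-1.05) fell with them. So did the thrombospondins THBS1 (-1.8) and THBS2 (-1.66), the protease inhibitor TIMP3 (-1.69), BGN (-1.56) and FBLN5 (-1.16). DCN, decorin, which binds collagen fibrils, was at 1819.7, 2003 and 1165 at day 1 and 4297, 5744 and 7737 at 3 weeks (log2 difference 1.83, SE 0.30, limma adjusted p = 0.0144). MMP2, a gelatinase, was at 180.1, 212 and 145 at day 1 and 343, 491 and 319.9 at 3 weeks (log2 difference 1.09, SE 0.23, limma adjusted p = 0.0287; -0.07 on the deposited FPKM). The other rises were SPARC (0.95), TIMP2 (0.88) and FBLN1 (0.85). Signs turned on the deposited FPKM for SPARC (-0.22), TIMP2 (-0.27) and FBLN1 (-0.30). DCN lost the call without day 1 replicate 1 (limma adjusted p up to 0.0529), and MMP2 without day 1 replicate 1, 2 or 3 or 3 weeks replicate 2 (limma adjusted p up to 0.119). TNC did not pass the filter on low FPKM when any 1 of the day 1 libraries was left out, and COL12A1 stayed past the threshold whichever library was left out.

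CTGF, a matricellular protein that is a classic target of YAP and TGF-beta, fell more than any other gene of the immediate early and stress list. It was at 239.6, 279.5 and 241 at day 1 and 13.7, 9.24 and 12.4 at 3 weeks (log2 difference -4.33, SE 0.19, limma adjusted p = 0.000301), and at 6 and 12 weeks it stood at 11.9 ± 3.02 and 31.6 ± 4.19. The day 1 mean was 21.5 times that of 3 weeks, with no overlap. The list of TGF-beta and BMP genes had 3 rises and 6 falls among 33 tested (median -0.25), against 4.43% and 5.16% of all genes tested. This list gave 0, 1 and 1 rises and 1, 3 and 1 falls without day 1 replicate 1, 2 or 3, and 1 rise without 3 weeks replicate 2. FST, an activin antagonist, was at 6.85, 7.39 and 6.56 at day 1 and 18.6, 38.1 and 31.8 at 3 weeks (log2 difference 1.89, SE 0.27, limma adjusted p = 0.0108). BMP4, a ligand, was at 11.2, 13 and 17.4 at day 1 and 43.6, 44.9 and 26.9 at 3 weeks (log2 difference 1.4, SE 0.26, limma adjusted p = 0.0216). The BMP antagonist CHRDL1 also rose (1.06; -0.08 on the deposited FPKM). Among the falls were the ligand BMP6 (-1.85), the receptor TGFBR2 (-1.09), the inhibitory SMAD6 (-1.82) and SMAD7 (-1.74) and the latency protein LTBP2 (-1.82). TGFB1 (-0.16, limma adjusted p = 0.791) and FSTL1 (-0.25, limma adjusted p = 0.558) gave no call. FST lost the call without day 1 replicate 1 (limma adjusted p up to 0.0547), and BMP4 without day 1 replicate 1, 2 or 3 or 3 weeks replicate 2 (limma adjusted p up to 0.104). BMP6 did not pass the filter on low FPKM when any 1 of the day 1 libraries was left out, and CTGF stayed past the threshold whichever library was left out.

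DKK2 and WNT10B rose among the WNT genes, and 4 others fell. Among 25 tested WNT genes 2 rose and 4 fell (median -0.33), against 4.43% and 5.16% of all genes tested. WNT genes gave 1, 1 and 1 rises and 0, 0 and 0 falls without day 1 replicate 1, 2 or 3, and 2 and 2 falls without 3 weeks replicate 2 or 3. DKK2, a secreted WNT modulator, was at 7.83, 9.73 and 7.13 at day 1 and 50.2, 52.3 and 49.1 at 3 weeks (log2 difference 2.49, SE 0.18, limma adjusted p = 0.00086). WNT10B, a ligand that restrains fat cell formation, was at 2.78, 2.42 and 1.76 at day 1 and 10.1, 16.1 and 7.8 at 3 weeks (log2 difference 1.85, SE 0.30, limma adjusted p = 0.0137). With WNT2 the falls were DKK3 (-1.5) and the receptors FZD2 (-1.4) and FZD6 (-1.04). Of 15 tested fetal and imprinted growth genes 6 fell and none rose in limma, with 8 and 1 at an unadjusted p under 0.05 (median -0.88). The fetal list gave 1, 1 and 1 falls without day 1 replicate 1, 2 or 3, and 3 and 3 falls without 3 weeks replicate 1 or 3. IGF2R, which clears IGF2 and sorts lysosomal enzymes, was at 53.4, 58.7 and 49.6 at day 1 and 6.07, 9.35 and 6.0 at 3 weeks (log2 difference -2.77, SE 0.21, limma adjusted p = 0.00101), and it remained low at 8.61 ± 0.78 at 12 weeks. MEST (-1.27), PEG10 (-1.05), PLAGL1 (-0.93) and GPC3 (-0.88) fell beside it and DLK1. WNT10B lost the call without day 1 replicate 1, 2 or 3 (limma adjusted p up to 0.0615), and DKK3 without day 1 replicate 1, 2 or 3 or 3 weeks replicate 1 (limma adjusted p up to 0.146). DKK2 and IGF2R stayed past the threshold whichever library was left out.

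**Figure D3:**
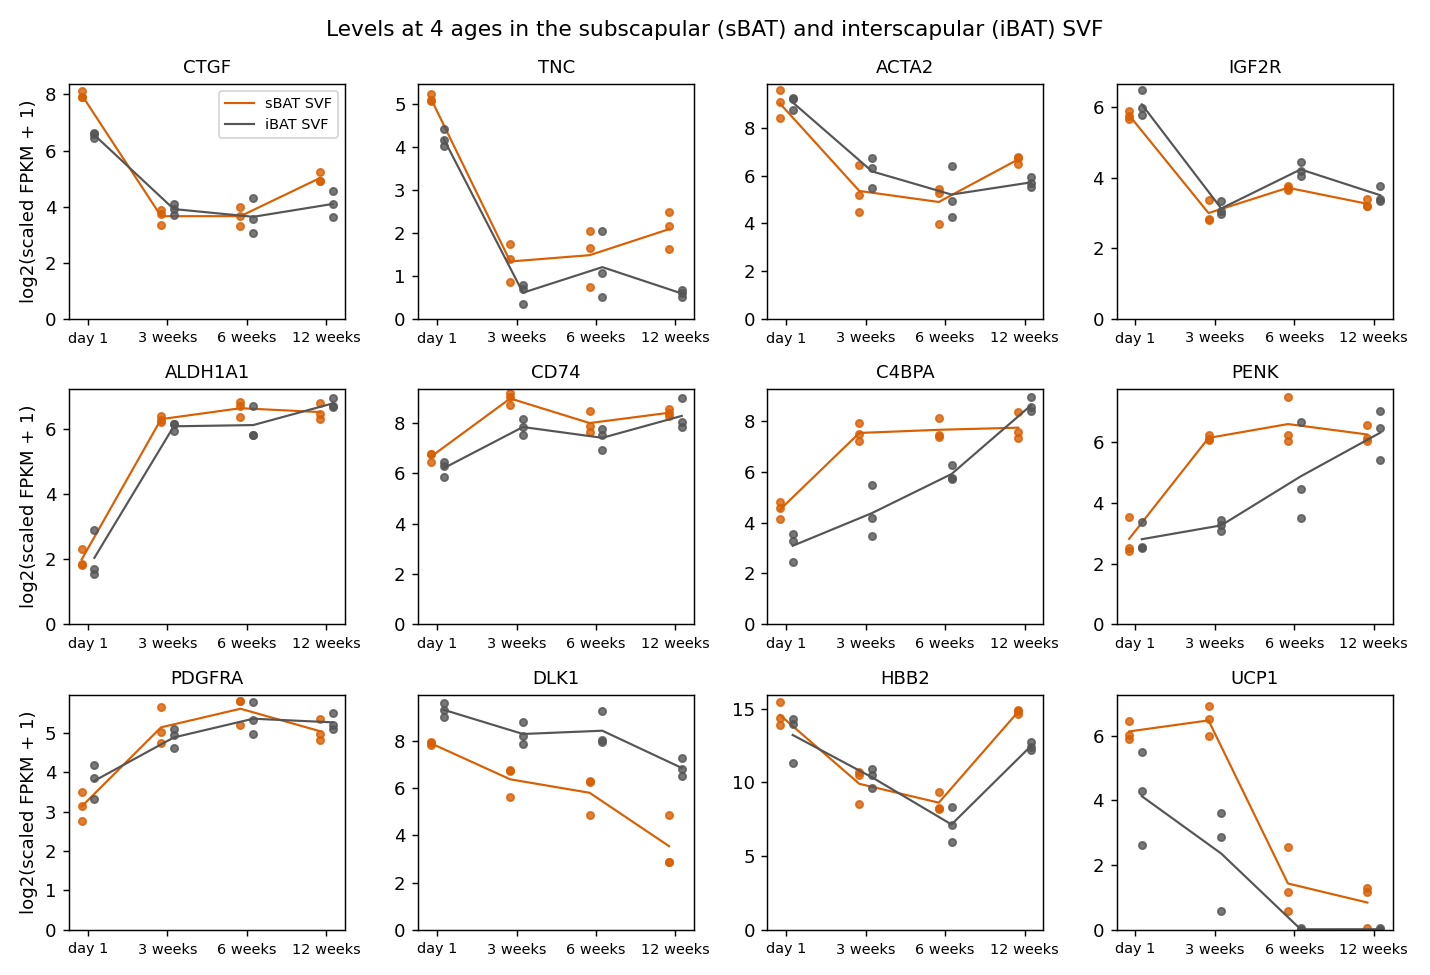
Levels of 12 genes are plotted at the 4 ages as log2(scaled FPKM + 1), one point per library, orange for the subscapular and grey for the interscapular SVF, with lines through the means. ALDH1A1 was above its day 1 values in all libraries of the later ages in both depots, PENK at 3 weeks had means of 69.98 ± 4.12 in the subscapular against 8.67 ± 1.25 (SD) in the interscapular SVF, and HBB2 was low at 3 and 6 weeks and high again at 12 weeks.

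Several contractile genes were lower at 3 weeks. Of 18 tested smooth muscle and pericyte genes 4 fell and 1, KCNJ8, rose (median -0.97), against 5.16% and 4.43% of all genes tested. Contractile genes gave 1, 1 and 1 rises and 2, 2 and 2 falls without day 1 replicate 1, 2 or 3. ACTA2, smooth muscle alpha actin, was at 336, 761 and 546 at day 1 and 85, 35.1 and 21.2 at 3 weeks (log2 difference -3.67, SE 0.51, limma adjusted p = 0.00972). ACTG2, the enteric actin, was at 77.9, 243 and 141 at day 1 and 12.6, 3.37 and 1.74 at 3 weeks (log2 difference -4.68, SE 0.63, limma adjusted p = 0.00886). Every day 1 library lay above every 3 weeks library for both, although actin genes are alike in sequence and reads may be shared among them. TAGLN (-2.69), an actin binding protein of smooth muscle, and MCAM (-2.17), an adhesion protein of pericytes and endothelium, were the other falls, while the pericyte genes RGS5 (0.80, limma adjusted p = 0.143; -0.31 on the deposited FPKM) and PDGFRB (-0.21, limma adjusted p = 0.633) gave no call. Skeletal muscle actin ACTA1 was at 961, 1129 and 327 at day 1 and 115, 1456 and 108 at 3 weeks (log2 difference -1.42, SE 1.00, limma adjusted p = 0.399). The summed level of the 21 skeletal muscle genes in the table was 255, 3715 and 238 in 3 weeks replicates 1, 2 and 3 against 680 to 2610 at day 1. Replicate 2 thus carried muscle transcripts at a level above all day 1 libraries, and their part in the results was not tested. Of 14 tested skeletal muscle genes 1, the embryonic myosin MYH3 (-2.48), fell (median -0.94), against 5.16% of all genes tested. Without 3 weeks replicate 2 the falls were 6 and the median -2.35. MYH3 lost the call without 3 weeks replicate 1, 2 or 3 (limma adjusted p up to 0.0766). MYH3 did not pass the filter on low FPKM when any 1 of the day 1 libraries was left out, and ACTA2 and ACTG2 stayed past the threshold whichever library was left out.

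Where 9.58% of all genes tested were called, endothelial genes had a median of -0.65 and 1 call among 22 tested. It was APLN, which encodes the vessel growth peptide apelin, at 4.81, 12.5 and 19.4 at day 1 and 1.39, 0.307 and 0.774 at 3 weeks (log2 difference -2.72, SE 0.48, limma adjusted p = 0.0177). PECAM1 was at 113, 94.3 and 194 at day 1 and 96.8, 56.5 and 38.1 at 3 weeks, with 1 library of 3 weeks inside the day 1 range (log2 difference -1.09, SE 0.39, limma adjusted p = 0.122). Nerve and Schwann cell genes gave 1 rise among 14, the myelin protein MAL (1.32, with a list median of 0.03, or -0.59 on the deposited FPKM). The rises were 5 without 3 weeks replicate 3 and 0 when any other library was left out. Without 3 weeks replicate 1 there was 1 fall. The summed level of the list was 1055, 529 and 135 in the 3 weeks libraries against 224 to 320 at day 1. Of 3 tested mesothelial and epithelial genes (median -1.36) the keratin KRT8 fell, at 2.22, 9.32 and 5.1 at day 1 and listed at 0 in all 3 weeks libraries. MAL lost the call without day 1 replicate 1, 2 or 3 or 3 weeks replicate 1 or 2 (limma adjusted p up to 0.126). APLN and KRT8 did not pass the filter on low FPKM when any 1 of the day 1 libraries was left out.

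Several genes of antigen presentation and complement were higher at 3 weeks. Of all genes tested 4.43% were called higher and 5.16% lower. Of 13 tested antigen presentation genes 4 rose and none fell in limma, with 5 and 0 at an unadjusted p under 0.05 (median 0.41, or -0.51 on the deposited FPKM). Antigen presentation genes gave 2, 2 and 2 rises without day 1 replicate 1, 2 or 3. The summed level of the list was 564 to 586 at day 1 and 1326 to 1396 at 3 weeks. CD74 alone gave 86 to 109 of these sums at day 1 and 417 to 580.1 at 3 weeks. The other 9 tested members were not called, among them TAP1 (-0.01), TAP2 (-0.85), PSMB8 (0.19) and PSMB9 (0.32). CD74, the invariant chain that escorts MHC class II, was at 86, 107 and 109 at day 1 and 526, 580.1 and 417 at 3 weeks (log2 difference 2.32, SE 0.19, limma adjusted p = 0.00135). CD83, a surface protein of mature dendritic cells, was at 26.4, 26.2 and 23.3 at day 1 and 67.3, 77.3 and 59.5 at 3 weeks (log2 difference 1.39, SE 0.17, limma adjusted p = 0.0071). The lowest 3 weeks value of each was well above the highest day 1 value. The other rises were the costimulator CD80 (1.35) and B2M (0.79; -0.37 on the deposited FPKM), the light chain of MHC class I. CCR7, which guides dendritic cells and lymphocytes to lymph nodes, was at 1.39, 1.9 and 1.46 at day 1 and 15.1, 15.1 and 8.33 at 3 weeks (log2 difference 2.38, SE 0.28, limma adjusted p = 0.0063). It was the only call among 10 tested T and NK cell genes (median 0.40, or -0.34 on the deposited FPKM). CD3E of the T cell receptor complex was at 1.57, 2.29 and 3.5 at day 1 and 2.74, 9.43 and 1.8 at 3 weeks (log2 difference 0.51, SE 0.50, limma adjusted p = 0.557; -0.26 on the deposited FPKM). JCHAIN, the joining chain of secreted IgA and IgM, was at 1.03, 2.39 and 1.53 at day 1 and 19.6, 47.1 and 21.5 at 3 weeks (log2 difference 3.44, SE 0.37, limma adjusted p = 0.00432). It was the call among 3 tested B and plasma cell genes (median 1.2). CD74, CD83, CCR7 and JCHAIN stayed past the threshold whichever library was left out.

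Of 14 tested complement genes 6 rose and none fell in limma, against 4.43% and 5.16% of all genes tested. At an unadjusted p under 0.05 in limma the counts were 7 and 0 (median 0.78, or -0.27 on the deposited FPKM). Complement genes gave 3, 3 and 4 rises without day 1 replicate 1, 2 or 3. C4BPA, a fluid phase inhibitor of the classical pathway, was at 22.8, 27.2 and 16.5 at day 1 and 146, 237 and 176 at 3 weeks (log2 difference 3.01, SE 0.25, limma adjusted p = 0.0014). SERPING1, the C1 inhibitor, was at 144, 148 and 101 at day 1 and 432, 574 and 393 at 3 weeks (log2 difference 1.82, SE 0.22, limma adjusted p = 0.0071). With these inhibitors rose the proteases C1R (1.44) and C1S (1.08), the central component C3 (1.1) and properdin (CFP, 1.36). The sign turned on the deposited FPKM for C1S (-0.07) and C3 (-0.04). The summed level of the 19 complement genes in the table was 358 to 469 at day 1 and 1079 to 1428 at 3 weeks, without overlap. C4BPA and SERPING1 stayed past the threshold whichever library was left out.

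Of 21 tested macrophage genes 3 rose and 1 fell, against 4.43% and 5.16% of all genes tested (median 0.40, or -0.68 on the deposited FPKM). The share that fell was near that of all genes, and the share that rose was above it. The summed scaled level of the 22 macrophage genes in the table was 1036 to 1198 at day 1 and 1581 to 2020 at 3 weeks. LYZ alone gave 372 to 528 of these sums at day 1 and 768 to 1250.3 at 3 weeks, most of the gap. Macrophage genes gave 0, 0 and 0 rises and 0, 0 and 0 falls without day 1 replicate 1, 2 or 3, and 0, 0 and 2 falls without 3 weeks replicate 1, 2 or 3. AIF1, an actin binding protein of macrophages, was at 12.3, 17.9 and 18.5 at day 1 and 38.2, 40.2 and 59.2 at 3 weeks (log2 difference 1.43, SE 0.25, limma adjusted p = 0.0166). Lysozyme (LYZ) was at 372, 472 and 528 at day 1 and 768, 1250.3 and 1171 at 3 weeks (log2 difference 1.2, SE 0.24, limma adjusted p = 0.0263). FCER1G, the signalling chain of Fc receptors, was the third rise (0.89; -0.25 on the deposited FPKM). CD163, the haemoglobin scavenger receptor, was at 75.5, 44.8 and 38.4 at day 1 and 6.94, 6.44 and 24.5 at 3 weeks (log2 difference -2.17, SE 0.50, limma adjusted p = 0.0371). The pan-macrophage gene CD68 was at 24, 24.2 and 32.1 at day 1 and 39.7, 35 and 31.5 at 3 weeks and PTPRC at 12.3, 15 and 11.1 at day 1 and 16, 19.4 and 25.2 at 3 weeks, neither of them called (0.40 and 0.60, limma adjusted p = 0.23 and 0.137; -0.72 and -0.47 on the deposited FPKM). Of 14 granulocyte and mast cell genes 2 fell and none rose in limma, with 6 and 0 at an unadjusted p under 0.05 (median -1.21). The falls were 7 without 3 weeks replicate 2 and 0, 0 and 1 without day 1 replicate 1, 2 or 3. CXCR1, a neutrophil receptor, was at 18.2, 18.5 and 7.87 at day 1 and 1.0, 3.45 and 3.08 at 3 weeks (log2 difference -2.17, SE 0.43, limma adjusted p = 0.0239). HDC, which makes histamine, also fell (-1.61). AIF1 lost the call without day 1 replicate 1, 2 or 3 (limma adjusted p up to 0.0782), LYZ without day 1 replicate 1, 2 or 3 or 3 weeks replicate 2 (limma adjusted p up to 0.115), CD163 without day 1 replicate 1, 2 or 3 or 3 weeks replicate 1 or 2 (limma adjusted p up to 0.142), and CXCR1 without day 1 replicate 1 or 2 (limma adjusted p up to 0.112). HDC did not pass the filter on low FPKM when any 1 of the day 1 libraries was left out.

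Cytokine genes changed in both directions. Of 25 tested chemokines and cytokines 6 rose and 3 fell (median -0.31), against 4.43% and 5.16% of all genes tested. Cytokine genes gave 3, 3 and 3 rises and 2, 3 and 2 falls without day 1 replicate 1, 2 or 3, and 5 falls without 3 weeks replicate 3. LIF, a cytokine of the IL6 family, was at 21.2, 20.9 and 21 at day 1 and 3.39, 1.55 and 1.24 at 3 weeks (log2 difference -2.91, SE 0.28, limma adjusted p = 0.00287). IL6 was at 272, 105 and 144 at day 1 and 30.2, 23.6 and 30.3 at 3 weeks (log2 difference -2.48, SE 0.34, limma adjusted p = 0.00925), and TNF was the third fall (-1.46). The day 1 libraries were above the 3 weeks libraries in each case. CCL22, a dendritic cell chemokine, was at 1.1, 1.49 and 0.768 at day 1 and 10.7, 20.2 and 8.23 at 3 weeks (log2 difference 2.65, SE 0.34, limma adjusted p = 0.00782). IL10, an anti-inflammatory cytokine, was at 3.28, 3.43 and 3.33 at day 1 and 29.8, 15.4 and 17.3 at 3 weeks (log2 difference 2.27, SE 0.27, limma adjusted p = 0.0065). The remaining rises were CCL21 (1.84), CCL5 (1.53), IL18 (1.79) and the IL1 receptor antagonist IL1RN (1.13; -0.0027 on the deposited FPKM). None of 19 tested interferon response genes was called in limma, with 2 higher and 1 lower at an unadjusted p under 0.05 (median -0.12). MX1 stood at -0.40 (limma adjusted p = 0.44) and DDX58 at 0.25 (limma adjusted p = 0.523; -0.81 on the deposited FPKM). LIF, IL6, CCL22 and IL10 stayed past the threshold whichever library was left out.

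Among 26 tested immediate early and stress genes 4 rose and 3 fell, against 4.43% and 5.16% of all genes tested. The median was 0.07, or -1.08 on the deposited FPKM. The list gave 0, 0 and 0 rises and 1, 1 and 1 falls without day 1 replicate 1, 2 or 3, and 0 and 1 rises without 3 weeks replicate 1 or 2. JUN was at 197, 221 and 276 at day 1 and 657, 500.4 and 378 at 3 weeks (log2 difference 1.12, SE 0.24, limma adjusted p = 0.0315), with -0.04 on the deposited FPKM. SOCS3, a feedback inhibitor of cytokine signalling, was at 115, 88.1 and 138 at day 1 and 217, 209.9 and 188 at 3 weeks (log2 difference 0.87, SE 0.20, limma adjusted p = 0.0377), with -0.29 there. FOS (0.73; -0.43 on the deposited FPKM) and ATF3 (0.78; -0.37) were the other rises, and NR4A2 (-0.83) and EGR2 (-0.75) fell with CTGF. JUN and SOCS3 lost the call without day 1 replicate 1, 2 or 3 or 3 weeks replicate 1 or 2 (limma adjusted p up to 0.143), and NR4A2 without day 1 replicate 1, 2 or 3 (limma adjusted p up to 0.113).

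Erythroid genes had 10 falls and no rise in limma among 18 tested, or 11 and 0 at an unadjusted p under 0.05. Of all genes tested 5.16% were called lower. The median was -1.79, and -0.98 without day 1 replicate 3. Erythroid genes gave 4, 6 and 4 falls without day 1 replicate 1, 2 or 3. HBB2, a beta globin, was at 45917, 15095 and 21083 at day 1 and 1425, 1663 and 373 at 3 weeks (log2 difference -4.67, SE 0.63, limma adjusted p = 0.00921). HBZ, annotated as zeta globin, was at 3112, 1384 and 1189 at day 1 and 32, 64 and 41.1 at 3 weeks (log2 difference -5.27, SE 0.40, limma adjusted p = 0.00101). Globin genes are alike enough for reads to be shared. ALAS2, the first enzyme of haem synthesis in red cells, was at 524, 196 and 342 at day 1 and 35.9, 26.7 and 4.07 at 3 weeks (log2 difference -4.25, SE 0.73, limma adjusted p = 0.0168). All day 1 values were above all 3 weeks values for each of the 3 genes. NFE2, a transcription factor of red cell precursors, was at 33.8, 16.2 and 32.5 at day 1 and 0, 3.81 and 0 at 3 weeks. HEMGN was at 38.4, 10.7 and 22.4 at day 1 and 1.23, 0.518 and 0 at 3 weeks, and TSPO2 at 41.2, 22.5 and 29.8 at day 1 and 0, 1.07 and 2.73 at 3 weeks. Each had a library listed at 0 at 3 weeks, so no fold is given. The summed level of the 22 erythroid genes in the table was 16909.7 to 50042 at day 1 and 488 to 1851 at 3 weeks. HBB2 did not stay low: it was at 423 ± 202 at 6 weeks and 28739 ± 2819.8 at 12 weeks. ALAS2 and NFE2 lost the call without day 1 replicate 1 or 3 (limma adjusted p up to 0.0712). HEMGN did not pass the filter on low FPKM when any 1 of the day 1 libraries was left out, and HBB2, HBZ and TSPO2 stayed past the threshold whichever library was left out.

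Cell cycle genes were lower across the list. Of 35 tested 8 fell and none rose in limma, against 5.16% and 4.43% of all genes tested. At an unadjusted p under 0.05 in limma the counts were 28 and 0, where 3066 of all 11341 genes passed in either direction. Cell cycle genes gave 0, 0 and 0 falls without day 1 replicate 1, 2 or 3. All 35 log2 differences were below 0, and the median was -1.06, against -0.08 for all genes tested. In 27 of the 35 the 3 weeks values lay wholly below those of day 1, as they did in 19.5% of all genes tested. MKI67, the antigen Ki-67 of dividing cells, was at 5.95, 8.07 and 6.29 at day 1 and 2.48, 1.55 and 2.07 at 3 weeks (log2 difference -1.36, SE 0.24, limma adjusted p = 0.0183). MCM6, a subunit of the replicative helicase, was at 22, 27 and 15.1 at day 1 and 2.9, 6.52 and 7.96 at 3 weeks (log2 difference -1.77, SE 0.36, limma adjusted p = 0.0263). TPX2, a spindle assembly factor, was at 6.88, 7.15 and 6.32 at day 1 and 0.645, 1.97 and 2.54 at 3 weeks (log2 difference -1.59, SE 0.32, limma adjusted p = 0.0263). The summed erythroid level was lower in the same libraries (16909.7 to 50042 at day 1 and 488 to 1851 at 3 weeks), and its part in these falls was not tested. Of 21 tested hypoxia and glycolysis genes 5 fell and none rose in limma, with 10 and 0 at an unadjusted p under 0.05 (median -0.59). Glycolysis genes gave 1, 3 and 1 falls without day 1 replicate 1, 2 or 3, and 8 falls without 3 weeks replicate 2. The list summed to 1913, 3169 and 1713 in 3 weeks replicates 1, 2 and 3 against 3224 to 3647 at day 1. The summed skeletal muscle level was 255, 3715 and 238 in the same 3 weeks libraries. At day 1 it was 2320, 2610 and 680 in replicates 1, 2 and 3. The part of muscle transcripts here was not tested. HK1, a hexokinase, was at 26.7, 28.3 and 38.6 at day 1 and 10.7, 12.5 and 12.1 at 3 weeks (log2 difference -1.32, SE 0.20, limma adjusted p = 0.0122). The other falls were EGLN3 (-1.86), an oxygen sensing hydroxylase, LDHA (-1.16), ENO1 (-1.29) and PGAM1 (-1.18). Of 17 tested genes of endoplasmic reticulum stress 1 fell, TRIB3 (-1.6, list median -0.25), a share near the 5.16% of all genes tested. MKI67, MCM6 and TPX2 lost the call without day 1 replicate 1, 2 or 3 (limma adjusted p up to 0.128), HK1 without day 1 replicate 1 or 3 (limma adjusted p up to 0.0532), EGLN3 without day 1 replicate 1, 2 or 3 or 3 weeks replicate 1 or 3 (limma adjusted p up to 0.129), and TRIB3 without 3 weeks replicate 2 or 3 (limma adjusted p up to 0.0583). TRIB3 did not pass the filter on low FPKM when any 1 of the day 1 libraries was left out.

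Cytosolic ribosomal protein genes had 9 rises and no fall in limma among 38 tested, against 4.43% and 5.16% of all genes tested. At an unadjusted p under 0.05 in limma the counts were 21 and 0. The median was 0.52, or -0.65 on the deposited FPKM. Ribosomal genes gave 0, 0 and 2 rises without day 1 replicate 1, 2 or 3, and 1 and 1 rises without 3 weeks replicate 1 or 2. RPS10 was at 414, 434 and 492 at day 1 and 910.2, 875 and 818 at 3 weeks (log2 difference 0.96, SE 0.16, limma adjusted p = 0.0148). RPS14 was at 269, 303 and 322 at day 1 and 613, 539.6 and 450.2 at 3 weeks (log2 difference 0.83, SE 0.18, limma adjusted p = 0.0306). Their signs turned to -0.20 and -0.33 on the deposited FPKM. The summed level of the 40 genes in the table was 15882 to 16079.7 at day 1 and 22111 to 23312 at 3 weeks. EEF1G, a translation elongation factor, was at 63.4, 29.9 and 63.4 at day 1 and 0, 9.91 and 0 at 3 weeks, and since 2 of its 3 weeks libraries are listed at 0, which may be a failed estimate, no fold is given. The table holds 2 entries with the symbol EEF1G, and the other was at 301, 342 and 252 at day 1 and 435, 402 and 432 at 3 weeks. That entry was not called (log2 difference 0.51, or -0.65 on the deposited FPKM). RPS10 lost the call without day 1 replicate 1 or 2 (limma adjusted p up to 0.0812), RPS14 without day 1 replicate 1, 2 or 3 or 3 weeks replicate 1 or 2 (limma adjusted p up to 0.144), and EEF1G without day 1 replicate 1, 2 or 3 or 3 weeks replicate 1 or 3 (limma adjusted p up to 0.102).

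The interscapular SVF, which shared no library with this comparison, was set beside it to ask whether the change was particular to the subscapular depot. The labels do not say whether libraries of both depots came from the same animals. The depots may thus not be independent, and the interaction below was tested without pairing. Of the 502 genes called higher in the subscapular SVF 493 (98.2%) had a higher mean at 3 weeks in the interscapular SVF, and of the 585 called lower 571 (97.6%) had a lower one. Of all 11341 tested genes 76.6% had the same sign in both depots. The median log2 differences were 1.33 in the subscapular and 0.85 in the interscapular SVF for the genes called higher, and -1.35 and -0.91 for those called lower. The subscapular values were selected by their own test and the interscapular values were not, so the gap between these medians is a description. ALDH1A1 changed by 4.04 there, TNC by -3.58, COL12A1 by -3.0, IGF2R by -2.95, ACTA2 by -2.89 and CD74 by 1.64 on the same log2 scale. The difference between the depots' changes, tested over the 12 libraries as an interaction, was called for 5 of 12439 genes (0.0402%), all of them more negative in the subscapular SVF, and 971 genes had an unadjusted p under 0.05. Without subscapular 3 weeks replicate 1, 2 or 3 the count was 10, 19 or 26, and without any 1 of the other libraries it was 2 to 4. CTGF was one of the 5: it was at 85.8, 98.3 and 95.5 at day 1 and 12.1, 14.2 and 16.2 at 3 weeks in the interscapular SVF and so fell there by less (interaction -1.69, SE 0.23, limma adjusted p = 0.0331; 95% interval -2.18 to -1.19). The other 4 were listed at 0 in all subscapular 3 weeks libraries. PENK had the opposite difference, at 4.8, 9.37 and 4.71 at day 1 and 7.41, 8.69 and 9.91 at 3 weeks in the interscapular SVF, and did not pass the threshold (interaction 2.87, SE 0.42, limma adjusted p = 0.053; 95% interval 1.94 to 3.8). C4BPA changed by 1.29 in the interscapular SVF, and its interaction of 1.73 was not called (limma adjusted p = 0.561).

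**Figure D4:**
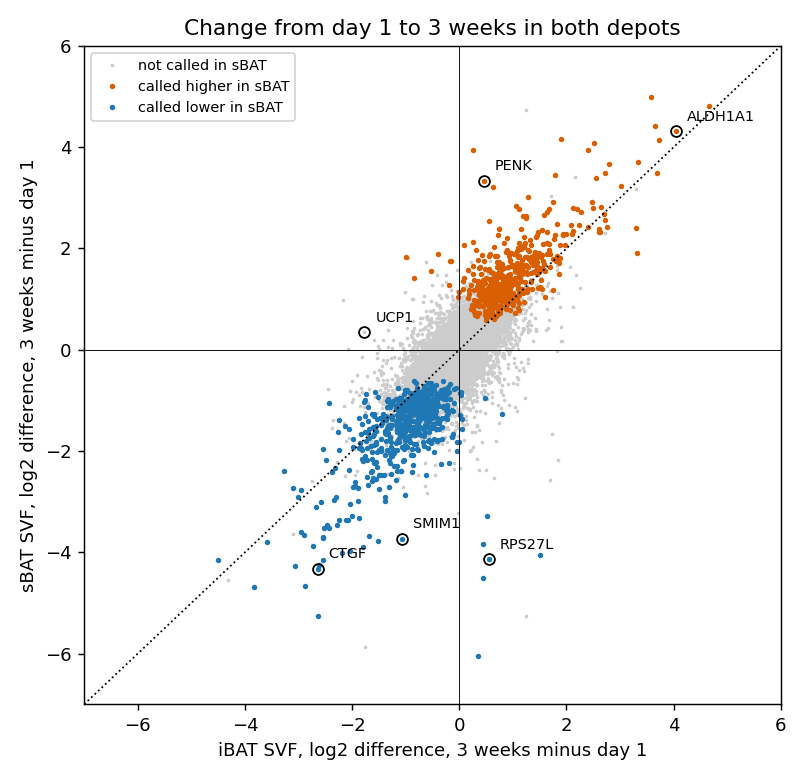
Each point is 1 of the 11341 genes tested, placed by its log2 difference between 3 weeks and day 1 in the interscapular SVF (x axis) and the subscapular SVF (y axis), with genes called in the subscapular SVF in orange and blue and equal change as a dotted line. Most called genes lie in the quadrants of equal sign, and PENK, CTGF, RPS27L and SMIM1 lie far from the line.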

How the data were processed

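The authors deposited 1 table of FPKM for 24 bulk SVF libraries, made per the submitters' processing notes with HISAT2 2.0.4, Bowtie2 2.2.5 and DESeq2 on the build OryCun2.0; the counting tool, strand setting and filters are not given in the sources used here. All 24 columns were mapped to a group by their names. Symbols came from the table and from a RefSeq gene table of another rabbit assembly, which matched 17693 of 20589 identifiers (85.9%) and was used for names alone. The members and gene lists were chosen with earlier results of these data known.

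FPKM were divided by median ratio factors (from 7667 genes that reached an FPKM of 1 in all 24 libraries, ADORA1 and LOC100009266 left out) and taken to log2(scaled FPKM + 1), a scale that understates changes of low genes. The main test was limma 3.58.1 (R 4.3.3) with a variance trend over the 6 libraries, two-sided, with Benjamini-Hochberg adjustment over all genes tested; the interaction of depot and age took 12 libraries. The script was tested on simulated data. Named genes were the 12 largest called rises and falls with a symbol, a mean scaled FPKM of at least 10 in 1 age and no overlap, up to 2 called members per direction in each of 31 lists (otherwise the 2 highest), up to 4 interaction genes per direction and 21 fixed genes, 19 of them in the table. Of the genes so named 2 are not reported here. Further called list members were named after their values were seen. Alternatives were other pseudocounts, filters, scalings, variance models, a replicate block and each library left out. Total iBAT and single-cell samples were not analysed here, and no sequence or coordinate was used.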

Additional observations from a re-analysis of the deposited data

Results flagged for a closer look

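The 5 genes below differed between depots in their change from day 1 to 3 weeks, by a limma interaction test over 12 libraries adjusted over 12439 genes, and each value is the subscapular minus the interscapular log2 change. CTGF had -1.69 (SE 0.23, limma adjusted p = 0.0331), with a subscapular change of -4.33 and an interscapular change of -2.64. The subscapular SVF started higher, at 253 ± 22.7 against 93.2 ± 6.54 scaled FPKM (SD, n = 3), and both depots were near each other at 3 weeks, at 11.8 ± 2.3 and 14.2 ± 2.04.

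The other 4 genes were listed at 0 in all subscapular 3 weeks libraries, so no fold is given for them. LOC100353320, annotated as cytochrome c oxidase subunit 7B, had -6.41 (limma adjusted p = 0.000266), with 65.3, 65.2 and 30.3 at day 1 and 58.9, 72 and 64.1 at 3 weeks in the interscapular SVF. RPS27L, a ribosomal protein S27-like gene, had -4.7 (limma adjusted p = 0.00613), with 4.55, 9.81 and 4.2 at day 1 and 6.04, 13.6 and 8.75 at 3 weeks there. LOC100344965, annotated as ATP synthase-coupling factor 6-like, had -4.29 (limma adjusted p = 0.011), with 11.5, 16.5 and 11.3 at day 1 and 27.7, 18.6 and 10.9 at 3 weeks there. SMIM1, which encodes the Vel blood group antigen of red cells, had -2.66 (limma adjusted p = 0.0438), with 6.67, 2.26 and 3.84 at day 1 and 1.19, 1.35 and 1.52 at 3 weeks there. These 4 were present again at 6 weeks in the subscapular SVF, with means of 33.1 ± 10.3, 7.34 ± 2.0, 9.63 ± 4.5 and 1.53 ± 0.419. LOC100353320, RPS27L and LOC100344965 belong to families with near-identical copies, between which reads may be split, and an exact 0 without counts may be a failed estimate.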

How the results depend on the processing

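The count of 1087 genes stayed within 1.5 times, at 844 to 1256, under a pseudocount of 0.1, no filter or a filter at an FPKM of 5, upper quartile scaling, factors from the 6 libraries, rescaling without the 2 dominant genes, variance weights per group over all 24 libraries, no variance trend, a minimum absolute log2 difference of 1 and a filter on scaled FPKM, the last chosen after seeing the data. Of the 1087 genes, 710 were called without a filter, 764 with variance weights and 820 with a filter at an FPKM of 5. The other settings just listed called 881 to 1080 of them. The count was 7079 on the deposited FPKM, where 688 of the 1087 were called, and 4004 (1695 higher and 2309 lower) with all 24 libraries in one fit, where 1082 were. With 1 library left out it ran from 150 to 1253. Between the ages the replicate numbers gave no sign of pairing: same-numbered subscapular libraries correlated at -0.17, 0.07 and -0.25 in their deviations. Between depots they correlated at 0.06, 0.61 and 0.34 at day 1, against -0.53 to 0.21 for different numbers, and at -0.17, 0.18 and -0.24 at 3 weeks, so not every pair was above 0.1. The fit with replicate number as a block called 346 genes. The count of 5 interaction genes was 13 at a pseudocount of 0.1, 8 without a filter, 3404 on the deposited FPKM, 3 after rescaling without the 2 dominant genes, 30 with all 24 libraries, 2 with variance weights, 2 with the replicate block, and 2 to 26 with 1 library left out. Where a count moved, the cause was not tested.

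On the deposited FPKM 19 of the 99 tested named genes changed sign. The log2 differences there were -0.16 for LETMD1, -0.40 for COX4I1, -0.48 for ATP5O, -0.07 for MMP2, -0.04 for JUN, -0.29 for SOCS3, -0.20 for RPS10, -0.33 for RPS14 and -0.02 for CD34, which were called, and -0.81 for ACAT2 and UCP1, ACADL (-0.52), ACAA2 (-0.64), INSIG1 (-0.21), DDX58 (-0.81), PTPRC (-0.47), CD68 (-0.72), COL3A1 (-0.94) and CD3E (-0.26), which were not. With 1 library left out the uncalled COL1A1, COL3A1, PPARG and CD3E changed sign at least once, and no named gene did under the other alternatives. On the deposited FPKM 15 named genes lost the call with an unchanged sign, among them CD83 and SERPING1. Calls were lost by 41, 30 and 34 of the named genes without day 1 replicate 1, 2 or 3. Without 3 weeks replicate 1, 2 or 3 they were lost by 15, 14 and 9. The losses were 20 without a filter, 20 with variance weights and 28 with the block. Another 10 did not pass the filter on low FPKM when any 1 of the day 1 libraries was left out, where 10502 to 10564 genes were tested, and 1 did not when any 1 of the 3 weeks libraries was left out. Absolute depth is unknown, so no limit could be set for genes listed at 0.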

Other observations

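The following genes were picked after their values were seen. MHC class II genes, which present antigen beside the invariant chain CD74, were higher at 3 weeks. RLA-DR-ALPHA, the rabbit class II DR alpha chain, was at 49.3, 52.5 and 53.9 at day 1 and 298, 395 and 354 at 3 weeks scaled FPKM (log2 difference 2.72, SE 0.17, limma adjusted p = 0.000708). RLA-DRB1 was at 10.5, 12.9 and 20.9 at day 1 and 87, 75.6 and 58.9 at 3 weeks (log2 difference 2.28, SE 0.28, limma adjusted p = 0.00706). RLA-DMA and RLA-DMB, the chains of the peptide exchanger DM, differed by 2.28 and 1.67 (limma adjusted p = 0.00512 and 0.0108). The ages did not overlap for any of the 4, and the interscapular changes were 2.27, 1.94, 1.99 and 1.37.

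WISP1, a matricellular relative of CTGF, was at 16.6, 16.7 and 16.2 at day 1 and 0, 0.575 and 0.484 at 3 weeks (log2 difference -3.72, SE 0.25, limma adjusted p = 0.000708). FBN2, the fibrillin of developing tissue, was at 18.4, 18.3 and 15.4 at day 1 and 0.613, 0.594 and 0.329 at 3 weeks (log2 difference -3.6, SE 0.22, limma adjusted p = 0.000708). WISP1 and FBN2 reached an FPKM of 1 in the day 1 libraries alone. Neither passes the filter on low FPKM when any 1 of those libraries is left out. ADAM12, a metalloprotease of growing mesenchyme, was at 45.9, 53.1 and 43.5 at day 1 and 2.81, 4.96 and 2.75 at 3 weeks (log2 difference -3.46, SE 0.24, limma adjusted p = 0.000708). GPX3, a secreted glutathione peroxidase, was at 50.4, 32.7 and 24.1 at day 1 and 198, 169 and 216 at 3 weeks (log2 difference 2.47, SE 0.27, limma adjusted p = 0.00457). IGFBP5, a binding protein of insulin-like growth factors, was at 50.9, 64.5 and 45.5 at day 1 and 289, 266 and 222 at 3 weeks (log2 difference 2.26, SE 0.19, limma adjusted p = 0.00147).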
